A study of Mus musculus with 11 samples.

Results

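The transcripts described here are those of 9 genes that build or break down glycogen in liver, measured in livers of db/db mice given phosphate-buffered saline (PBS) or an antibody against the glucagon receptor. The 9 genes were Gyg, Ugp2, Gys2, Gbe1, Pygl, Phka2, Ppp1r3b, Ppp1r3c and Ppp1r3g. Their probes were found through the RefSeq transcript each probe was designed on. All 9 genes had a probe, 13 probes in all out of 39429 on the array, and all 13 were well above background in the liver dye on all 11 arrays, so no member was lost to the filter on dim probes. All mice carried the db/db genotype, which removes the signalling form of the leptin receptor and makes mice obese and diabetic. One group of 5 samples (numbered 1, 3, 4, 5 and 6) received PBS, and the other group of 6 samples (numbered 1 to 6) received 5 mg/kg of the monoclonal antibody 3c7.v44 against the glucagon receptor (GCGR). The sex, age and length of treatment are not given in the sources used here, and no label states whether the numbered samples were different mice. The p-values therefore reflect only how far these samples spread, which may be technical. On every array the liver was in the Cy5 dye and a common mouse reference RNA in the Cy3 dye, and each level below is log2 of liver over reference.

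Glycogen is the branched glucose polymer in which the liver stores glucose after a meal. Glycogenin starts each particle, the synthase lengthens the chains with glucose from UDP-glucose, and the branching enzyme adds branch points. Phosphorylase releases the glucose again as glucose 1-phosphate. Glucagon, acting through its receptor, cyclic AMP and protein kinase A, is the textbook signal that switches phosphorylase on through phosphorylase kinase and switches the synthase off. The opposite switch is made by protein phosphatase 1, which glycogen-targeting subunits such as Ppp1r3b, Ppp1r3c and Ppp1r3g bring to the particle. These switches act on the proteins by phosphorylation, whereas the arrays read transcript levels only.

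Of the 9 genes 4 rose with the antibody and 0 fell. The 4 were the branching enzyme Gbe1, the liver phosphorylase Pygl, the liver synthase Gys2 and glycogenin Gyg, so that enzymes of both directions were higher. Among all 15951 genes tested, 14.6% passed in either direction and 8.98% passed as higher and 5.67% as lower (limma, two-sided, Benjamini-Hochberg adjusted p under 0.05 over all genes). The median log2 difference was 0.23 over the 9 members and 0.01 over all genes, whose middle range from the lower to the upper quartile ran from -0.08 to 0.11. Among all genes 1432 rose and 904 fell. The share of risers among them was 61.3% here, 21.3% with median centring of each array, 45.2% with the scanner software's own ratio and 51.3% with the Cy5 dye alone. In bulk liver, fewer cells of a type and less RNA per cell cannot be told apart.

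**Figure D1:**
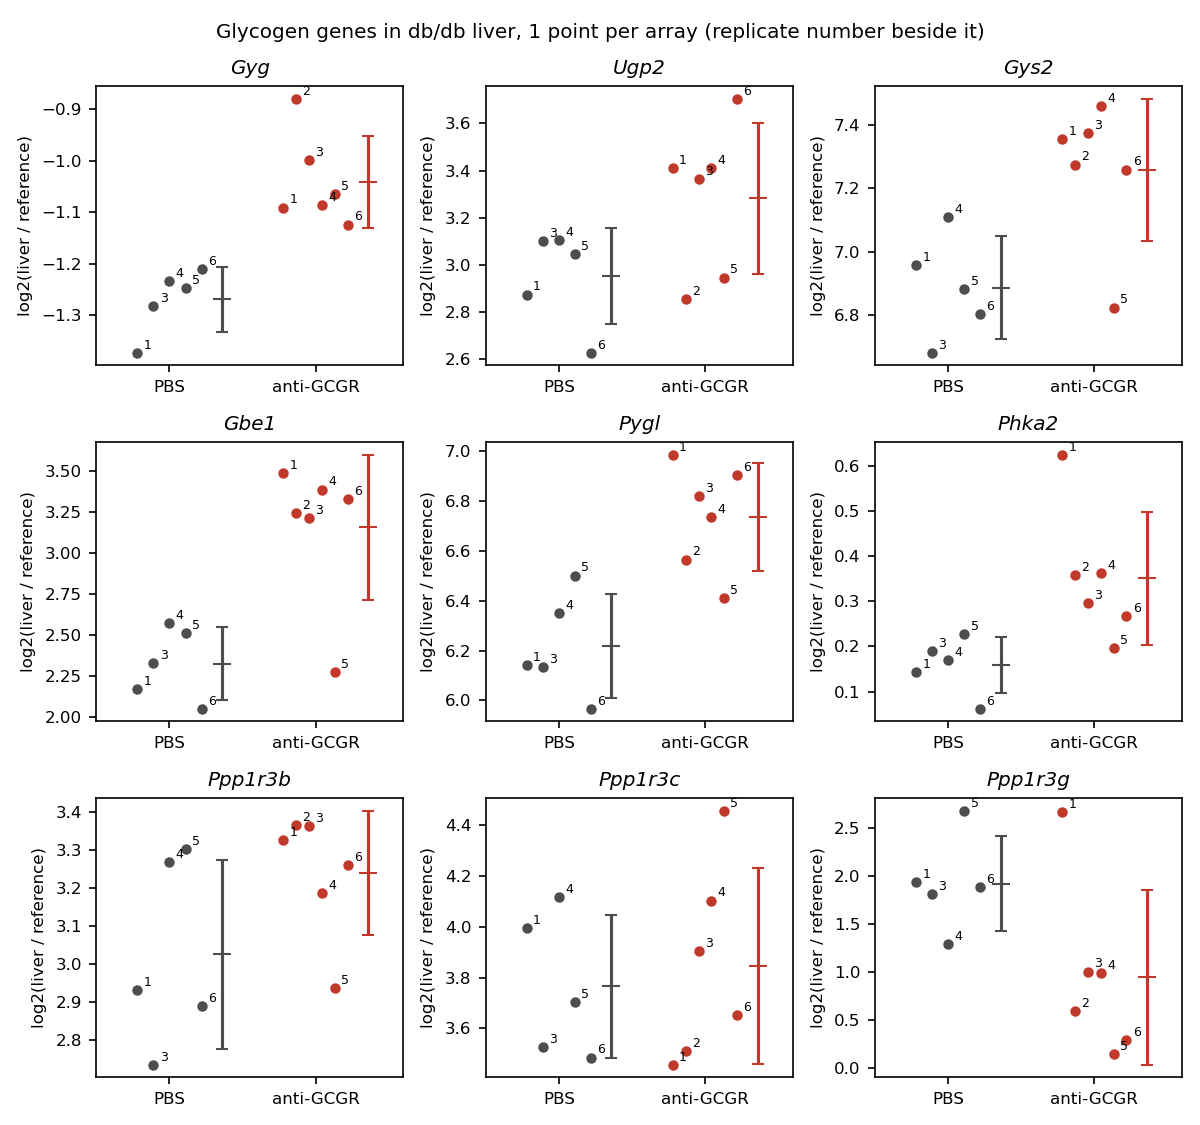
Log2 of liver over reference (vertical axis) for the 9 glycogen genes on each array, with the replicate number beside each point and the mean and SD as a bar. Antibody replicate 5 lies among the PBS arrays for Gys2, Gbe1 and Pygl, and the groups do not overlap for Gyg.

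The enzymes that build the polymer are described first. Gyg encodes glycogenin, the self-glucosylating primer of each particle. It was at -1.37, -1.28, -1.23, -1.25 and -1.21 on PBS replicates 1, 3, 4, 5 and 6. With the antibody it was at -1.09, -0.88, -0.999, -1.09, -1.07 and -1.12 on replicates 1 to 6. Every antibody array was above every PBS array, and Gyg was the only member whose groups did not overlap, against 3.96% of all genes tested with non-overlapping groups in that direction and 6.65% in either. Its log2 difference was 0.23 ± 0.05 (SE, adjusted p = 0.0178, by limma over all genes as for every adjusted p of a gene below). The call was lost without PBS replicate 1 (0.20, adjusted p = 0.0517), with median centring (0.12, adjusted p = 0.275) and with the Cy5 dye alone (0.10, adjusted p = 0.202). A second Gyg probe differed by 0.22 ± 0.06 (SE, adjusted p = 0.0247 over 28565 probes). With the Cy5 dye alone the second probe passed (0.35, limma adjusted p = 0.00519 over 28565 probes), unlike the first. The signal of the first Gyg probe in Cy5 differed by 0.12 and that in Cy3 by -0.11. For the second probe these differences were 0.36 and 0.14. The part of the Cy3 differences in the Gyg result was not tested.

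Ugp2 encodes the pyrophosphorylase that makes UDP-glucose, the synthase's substrate. Its brighter probe was at 2.87, 3.10, 3.11, 3.05 and 2.63 on the PBS arrays and at 3.41, 2.86, 3.36, 3.41, 2.95 and 3.71 with the antibody. Antibody replicates 2 and 5 lay within the PBS range and the other 4 above it. The log2 difference of 0.33 did not pass (SE 0.14, adjusted p = 0.139, 95% interval 0.02 to 0.64). The second Ugp2 probe differed by 0.37 (SE 0.12, adjusted p = 0.0540 over the kept probes).

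Gys2 encodes the liver form of glycogen synthase. It stood at 6.96, 6.68, 7.11, 6.88 and 6.80 on the PBS arrays. With the antibody it stood at 7.36, 7.27, 7.37, 7.46, 6.82 and 7.26. Replicate 5 was among the PBS arrays, and the other 5 antibody arrays were above the highest PBS value. The means were 6.89 ± 0.16 (SD, n = 5) and 7.26 ± 0.22 (SD, n = 6), a log2 difference of 0.37 ± 0.11 (SE, adjusted p = 0.0365). The second Gys2 probe rose by 0.44 ± 0.10 (SE, adjusted p = 0.0147 over the kept probes). The call rested on several arrays: it was lost in 9 of the 11 fits that left out 1 array each, in which the log2 difference ran from 0.32 to 0.46 and the adjusted p from 0.00114 to 0.0920. With the scanner software's ratio the log2 difference was 0.07 (adjusted p = 0.707), and 0.09 on the second probe. It was 0.27 with a normexp offset of 0 (adjusted p = 0.140) and 0.29 with median centring (adjusted p = 0.101). The Gys2 signal in Cy5 differed between the groups by 0.63. That in Cy3, the dye of the common reference, differed by 0.26, and the part of the Cy3 difference in the result was not tested.

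Gbe1, the branching enzyme that transfers chain ends into branches, had the largest log2 difference of the 4 genes that passed. Its PBS values were 2.17, 2.33, 2.57, 2.51 and 2.05. Its antibody values were 3.49, 3.25, 3.21, 3.39, 2.28 and 3.33. Antibody replicate 5 was within the PBS range, and the other 5 arrays exceeded the highest PBS value. The means were 2.33 ± 0.22 (SD, n = 5) and 3.16 ± 0.44 (SD, n = 6), a 1.78-fold rise (log2 difference 0.83 ± 0.19, SE, adjusted p = 0.0142). The call held in all 11 fits that each lacked 1 array, with log2 differences of 0.76 to 1.01, the last of them without antibody replicate 5. The Gbe1 signal in Cy5 differed by 0.72 and that in Cy3 by -0.11.

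On the side of breakdown, Pygl encodes the liver phosphorylase, which cuts glucose from chain ends. Its single probe was at 6.14, 6.13, 6.35, 6.501 and 5.97 on the PBS arrays and at 6.99, 6.57, 6.82, 6.74, 6.41 and 6.90 with the antibody. Antibody replicate 5 lay below PBS replicate 5, and the other antibody arrays lay above all PBS arrays. The means were 6.22 ± 0.21 (SD, n = 5) and 6.74 ± 0.22 (SD, n = 6), a 1.43-fold rise (log2 difference 0.52 ± 0.11, SE, adjusted p = 0.0131). The rise passed in all 11 fits that each lacked 1 array (adjusted p from 0.00161 to 0.0376). The Pygl signal in Cy5 differed by 0.41 and that in Cy3 by -0.11.

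Phka2 encodes the liver regulatory subunit of phosphorylase kinase, the enzyme that activates phosphorylase. It lay between 0.06 and 0.23 on the PBS arrays and between 0.20 and 0.62 on the antibody arrays, with replicate 1 the highest. The difference of 0.19 on its brighter probe did not pass (SE 0.07, adjusted p = 0.0836, 95% interval 0.04 to 0.34), and its dimmer probe differed by 0.06 (SE 0.06, adjusted p = 0.556 over the kept probes). Without antibody replicate 5 the brighter probe passed (log2 difference 0.22, adjusted p = 0.0326).

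Synthase and phosphorylase were also set against each other within each array, which removes any scaling of the whole array. The difference of the log2 levels, Gys2 minus Pygl, was 0.67 ± 0.20 (SD, n = 5) on the PBS arrays and 0.52 ± 0.17 (SD, n = 6) on the antibody arrays, with ranges of 0.38 to 0.84 and 0.35 to 0.72 that overlapped. The groups differed by -0.15 (two-sided exact permutation p = 0.201 over every split of the arrays, smallest possible p = 0.00216), so an unequal shift of the 2 transcripts was not detected. With the scanner software's ratio the difference was -0.38 (exact permutation p = 0.0195), and with the Cy5 dye alone it was 0.19, the opposite sign (exact permutation p = 0.132).

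The 3 targeting subunits of protein phosphatase 1 did not pass. Ppp1r3b, the main subunit of rodent liver, was at 2.93, 2.73, 3.27, 3.30 and 2.89 on the PBS arrays and at 3.33, 3.37, 3.36, 3.19, 2.94 and 3.26 with the antibody. The groups overlapped, and the log2 difference of 0.22 did not pass (SE 0.11, adjusted p = 0.212, 95% interval -0.02 to 0.46). Its sign turned with the Cy5 dye alone (-0.18, adjusted p = 0.0510), and its signal in Cy5 differed by -0.21 and that in Cy3 by -0.43.

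Ppp1r3c, also called protein targeting to glycogen, was at 3.996, 3.53, 4.12, 3.70 and 3.48 on the PBS arrays. It was at 3.46, 3.51, 3.91, 4.10, 4.46 and 3.65 on the antibody arrays. The highest value was that of antibody replicate 5, the array on which most other members were lowest. The log2 difference was 0.08 (SE 0.18, adjusted p = 0.805), with a 95% interval of -0.30 to 0.47, and it was below 0 with median centring (-0.01), the scanner software's ratio (-0.16), the Cy5 dye alone (-0.06) and without antibody replicate 5 (-0.04).

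Ppp1r3g, another targeting subunit that promotes glycogen synthesis in liver, had the lowest log2 difference of the 9 genes and did not pass. On PBS replicates 1, 3, 4, 5 and 6 it was at 1.93, 1.81, 1.29, 2.67 and 1.89. On antibody replicates 1 to 6 it was at 2.66, 0.59, 1.004, 0.99, 0.15 and 0.29. Antibody replicates 2 to 6 were all below the lowest PBS array, while antibody replicate 1 was level with the highest. The log2 difference was -0.97 (SE 0.38, adjusted p = 0.107, 95% interval -1.799 to -0.14). Its probe was the dimmest of those standing for the 9 genes (mean log2 brightness 6.91). Under other processing the log2 difference lay between -1.62, with the scanner software's ratio, and -0.90. Within slide 1 it was 0.21, within slide 2 -2.30 and within slide 3 -1.20. Without antibody replicate 1 Ppp1r3g passed, with a log2 difference of -1.31 (SE 0.235, adjusted p = 0.0115), and it passed only in that fit among the 11 that left out 1 array. The signal in Cy5 differed by -0.996 and that in Cy3 by -0.03.

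**Figure D2:**
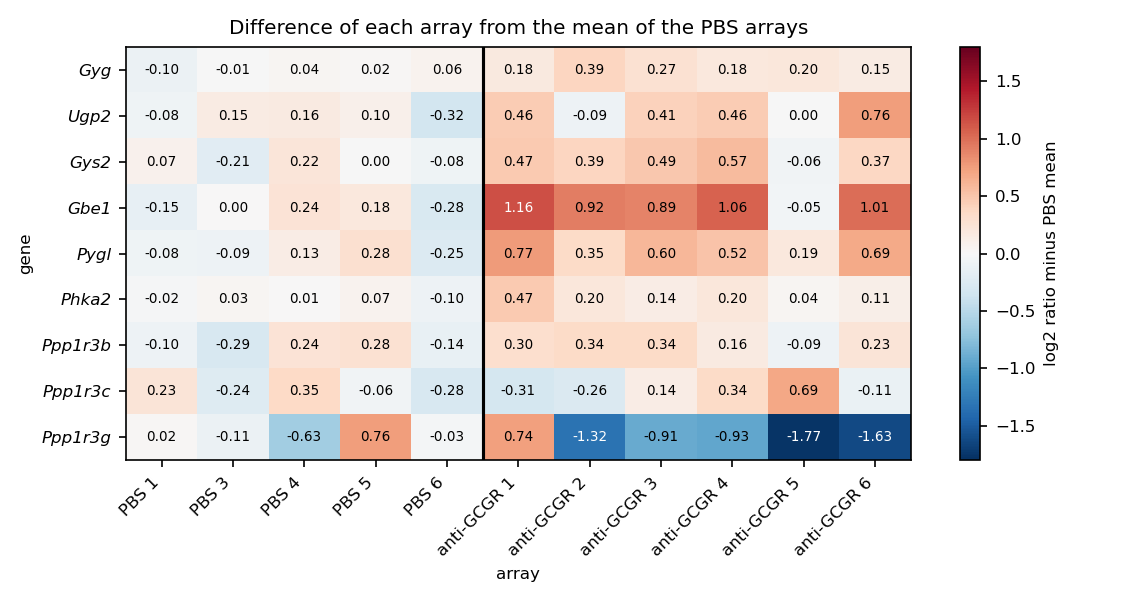
Difference of each array from the mean of the PBS arrays (log2 ratio, colour and number) for the 9 glycogen genes in rows and the 11 arrays in columns, with a line between the groups. Gbe1 stands 0.89 to 1.16 above the PBS mean on 5 antibody arrays and at -0.05 on replicate 5, and Ppp1r3g is below it on all antibody arrays but replicate 1.

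The spread within the antibody group was shared by most members. Replicate 5 was the lowest antibody array for 6 of the 9 genes (Gys2, Gbe1, Pygl, Phka2, Ppp1r3b and Ppp1r3g). For Ppp1r3g that value was the antibody value furthest from the PBS mean. The mean difference of replicate 5 from the PBS mean over the 9 genes was -0.09, against 0.10 to 0.47 on the other antibody arrays. Ppp1r3g weighed on these means, at -1.77 on replicate 5, -1.32 on replicate 2 and 0.74 on replicate 1. The other members lay between -0.09 and 0.69 on replicate 5. Antibody replicates 1 and 3 exceeded the highest PBS value in 7 of 9 genes each, replicates 2, 4 and 6 in 6 each and replicate 5 in 2. Within the PBS group, replicate 6 was the lowest array for 5 genes, and replicates 4 and 5 were the highest for 4 each. Each of the 3 slides held both groups. The Gbe1 difference was 1.07 and 1.08 on slides 1 and 3, with 2 arrays of each group on each slide. It was 0.25 on slide 2, which held PBS replicate 5 and antibody replicates 2 and 5. For Pygl the values were 0.62, 0.81 and -0.01, for Gys2 0.37, 0.57 and 0.17, and for Gyg 0.21, 0.19 and 0.27 in the order of slides 1, 3 and 2. With slide as a block the same 4 genes passed, Gys2 with a log2 difference of 0.40 (adjusted p = 0.0164).

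The genes whose levels followed Gys2 and Pygl most closely from array to array were taken over all genes tested outside the lists used here, by Pearson's r over the 11 arrays after the mean of each group was subtracted. For Gys2 they were Serinc2 (r = 0.940), Bag5 (0.936) and Gcgr, the glucagon receptor (0.935). Without antibody replicate 5 these values were 0.830, 0.820 and 0.812. For Pygl they were Rpia, an enzyme of the pentose phosphate pathway (r = 0.966), the fatty acid elongase Elovl6 (0.962) and the acetyl-CoA carboxylase Acaca (0.949), with 0.966, 0.964 and 0.926 without antibody replicate 5. These are descriptions of the genes at the top of a ranking, over arrays that share a reference RNA and 3 slides.

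Promoters of the 3 risers with a RefSeq entry are shown together with those of Ppp1r3c and Ppp1r3g, targeting subunits that did not pass. Each sequence holds the 250 bases before the start site, 5′ to 3′ in the sense of the gene, from RefSeq on build GRCm38.p6. Entries were found for 7 of the 9 genes. Capitals mark matches to the cyclic AMP response element TGACGTCA, its half-site TGACG (which the full element contains), the E-box CACGTG, the forkhead motif TGTTTAC and the CCAAT box CCAAT, each searched on both strands.
Pygl, chr12:70227684-70227933, minus strand: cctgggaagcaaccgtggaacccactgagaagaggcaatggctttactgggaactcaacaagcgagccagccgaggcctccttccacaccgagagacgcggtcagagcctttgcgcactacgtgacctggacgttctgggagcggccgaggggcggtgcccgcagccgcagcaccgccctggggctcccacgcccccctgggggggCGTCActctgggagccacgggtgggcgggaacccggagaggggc
Gbe1, chr16:70313699-70313948, plus strand: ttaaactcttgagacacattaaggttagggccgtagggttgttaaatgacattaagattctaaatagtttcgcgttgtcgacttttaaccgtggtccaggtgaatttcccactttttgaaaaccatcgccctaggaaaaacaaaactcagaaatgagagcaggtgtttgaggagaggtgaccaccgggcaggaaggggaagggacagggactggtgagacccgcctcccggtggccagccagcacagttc
Gyg, chr3:20155117-20155366, minus strand: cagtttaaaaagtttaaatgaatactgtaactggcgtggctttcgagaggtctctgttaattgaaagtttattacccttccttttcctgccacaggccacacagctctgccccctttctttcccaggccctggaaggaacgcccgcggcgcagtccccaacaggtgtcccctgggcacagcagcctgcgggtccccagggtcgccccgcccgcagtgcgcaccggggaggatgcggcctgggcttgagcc
Ppp1r3c, chr19:36736605-36736854, minus strand: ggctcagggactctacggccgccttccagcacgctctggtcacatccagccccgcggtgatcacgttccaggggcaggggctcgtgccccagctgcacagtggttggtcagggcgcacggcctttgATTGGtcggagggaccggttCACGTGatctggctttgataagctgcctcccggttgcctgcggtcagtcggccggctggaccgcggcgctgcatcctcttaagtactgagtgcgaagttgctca
Ppp1r3g, chr13:35967656-35967905, plus strand: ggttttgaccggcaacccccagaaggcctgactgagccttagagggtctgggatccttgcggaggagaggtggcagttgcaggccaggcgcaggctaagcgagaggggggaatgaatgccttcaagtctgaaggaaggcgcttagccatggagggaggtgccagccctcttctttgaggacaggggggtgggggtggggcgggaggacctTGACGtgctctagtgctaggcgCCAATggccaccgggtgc
Among 32841 promoter windows of the same length in the table, 1.55% held TGACGTCA, 17.8% TGACG, 6.02% CACGTG, 3.17% TGTTTAC and 33.9% CCAAT. The Pygl window held the half-site on the reverse strand at positions -44 to -40 from the start, and the Ppp1r3g window held it on the gene's strand at -40 to -36, with a CCAAT box at -18 to -14. The Ppp1r3c window held an E-box at -104 to -99 and a reverse CCAAT box at -124 to -120. None of the 5 motifs was in the Gbe1 or Gyg window. The shares of G and C were 69.2% for Pygl, 48.8% for Gbe1, 59.6% for Gyg, 64.4% for Ppp1r3c and 63.2% for Ppp1r3g. Windows not shown were at 62.8% for Phka2 and at 64.0% and 73.6% for Ugp2. The median over the table was 52.4%. Of these windows not shown, the first of Ugp2 held a reverse CCAAT box at -49 to -45. The other Ugp2 window and the Phka2 window held none of the 5 motifs.

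Most other genes of the pathway did not pass. Of 38 further genes chosen by role, 35 were tested, of which 2 rose (Slc2a2 among them), 1 fell (Pgm1) and 32 did not pass, against the 14.6% of all genes called in either direction, and their median log2 difference was 0.07. Among 8 other enzymes of the polymer Pgm1, the phosphoglucomutase that interconverts glucose 1-phosphate and glucose 6-phosphate, was the only one to pass. It was at 1.29 to 1.47 on the PBS arrays, and at 0.97, 1.31, 1.001, 0.84, 1.34 and 0.88 on antibody replicates 1 to 6. Replicates 2 and 5 were within the PBS range and the other 4 below it, a log2 difference of -0.31 (SE 0.09, adjusted p = 0.0393) that was lost in 9 of the 11 fits that each lacked 1 array. The synthase of muscle and most other tissues, Gys1, differed by -0.01 (adjusted p = 0.909, 95% interval -0.12 to 0.10). The 95% interval of Gys2 was 0.14 to 0.60, though its log2 difference was 0.07 with the scanner software's ratio. The differences of Gys1 and Gys2 were not tested against each other. The muscle and brain phosphorylases Pygm (0.01) and Pygb (0.20) did not pass either, although Pygb passed with slide as a block (0.24, adjusted p = 0.0357).

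**Figure D3:**
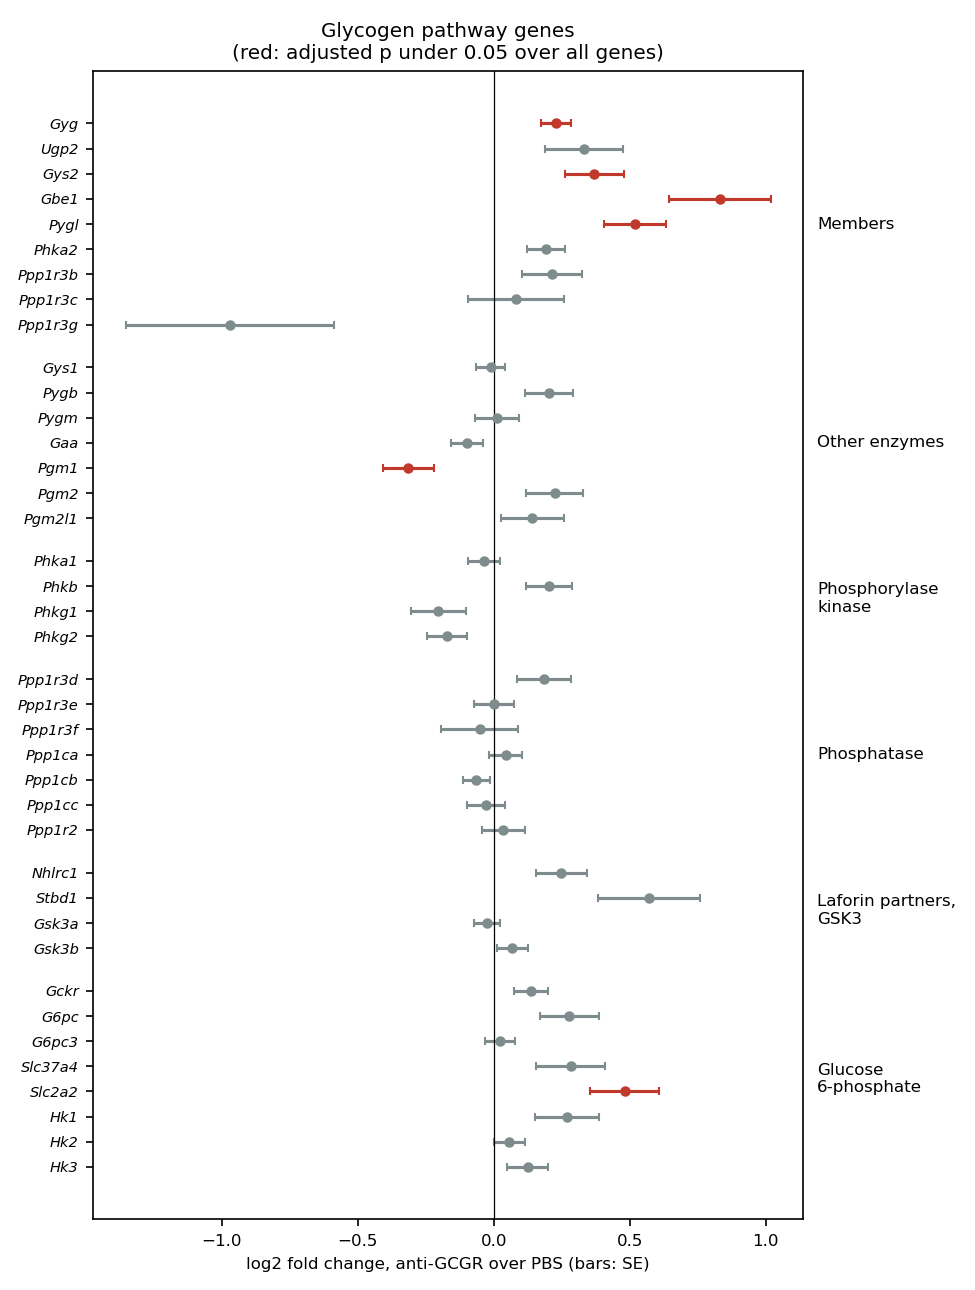
Log2 fold change of antibody over PBS (horizontal axis, bars are the SE) for the 9 members and further genes of the pathway grouped by role, with genes past the adjusted p of 0.05 in red. The red genes are Gyg, Gys2, Gbe1, Pygl and Slc2a2 on the right and Pgm1 on the left.

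Among the other subunits of phosphorylase kinase, the catalytic subunits Phkg1 (-0.20) and Phkg2 (-0.17) and the beta subunit Phkb (0.20) did not pass. With slide as a block Phkg2 passed (-0.20, adjusted p = 0.0458). None of 7 tested phosphatase genes passed, and Ppp1r3d, a further targeting subunit and the one with the smallest p, was at 0.19 (SE 0.10, adjusted p = 0.225). Of the 4 tested genes in the group of malin, Stbd1 and the GSK3 kinases none passed, while with slide as a block malin, Nhlrc1 (0.28, adjusted p = 0.0370), and Stbd1 (0.58, adjusted p = 0.0483) did. Stbd1, a protein that binds glycogen and tethers it to membranes, was at 0.28 to 0.96 on the PBS arrays and at 1.56, 1.45, 1.104, 1.49, 0.46 and 1.01 on antibody replicates 1 to 6. Replicate 5 was among the PBS arrays and the other 5 were above them all, with a log2 difference of 0.57 (SE 0.19, adjusted p = 0.0573) and of 0.71 without replicate 5 (adjusted p = 0.00311).

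Among 9 genes that supply or release glucose 6-phosphate 1 rose. Slc2a2, the glucose transporter of hepatocytes, was at 7.74 to 7.99 on the PBS arrays and at 8.37, 8.47, 8.76, 8.36, 7.82 and 8.46 with the antibody. Replicate 5 again lay within the PBS range and the other 5 above it, a log2 difference of 0.48 ± 0.13 (SE, adjusted p = 0.0249), and its call was lost without PBS replicate 1 (0.47, adjusted p = 0.0618) or 6 (0.44, adjusted p = 0.0589). The Slc2a2 call was also lost with the scanner software's ratio (0.03, adjusted p = 0.941), a normexp offset of 0 (0.36, adjusted p = 0.170) and median centring (0.37, adjusted p = 0.0731). The glucose 6-phosphatase G6pc, which releases free glucose, was at 0.28 (SE 0.11, adjusted p = 0.103). G6pc passed with slide as a block (0.32, adjusted p = 0.0164) and with the Cy5 dye alone (1.17, adjusted p = 0.0403), and was at 0.002 with the scanner software's ratio (adjusted p = 0.991). Its signal in Cy5 differed by 1.14 and that in Cy3 by 0.87. Without antibody replicate 5, 9 of the 35 further genes passed. Among them were G6pc (0.36), Nhlrc1 or malin (0.29), Pgm2 (0.31), Slc2a2 (0.59), the glucose 6-phosphate translocase Slc37a4 (0.40) and Stbd1 (0.71) as higher and Pgm1 (-0.37) as lower.

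**Figure D4:**
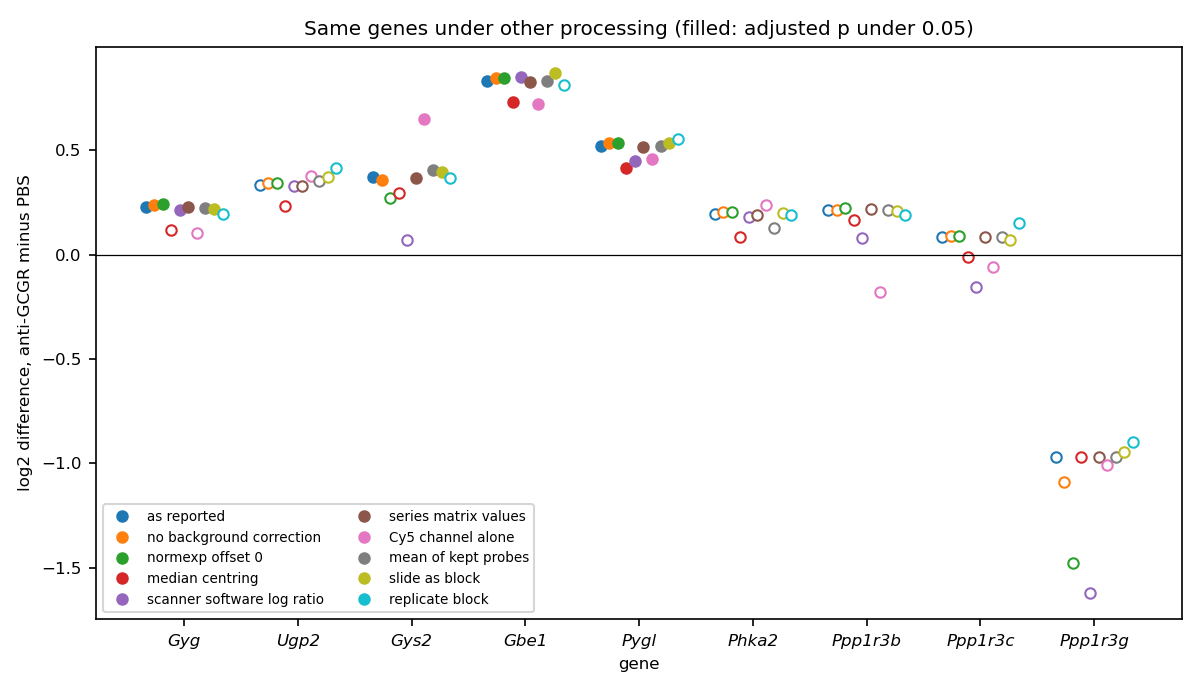
Log2 difference between the groups (vertical axis) for the 9 glycogen genes as reported and under 9 other processing choices, filled where the adjusted p was under 0.05. Gbe1 lies between 0.72 and 0.87 and Pygl between 0.42 and 0.55, both filled in every choice but the replicate block, while Gys2 falls to 0.07 with the scanner software's ratio.

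The samples carried the label liver, and 10 of 10 hepatocyte markers were well above background. Their mean level lay between 5.98 and 6.23 on the PBS arrays and between 5.98 and 6.17 on the antibody arrays, and none of the 10 passed. Among all genes tested 8.98% passed as higher and 5.67% as lower, and the marker counts were not tested against these shares. Of 8 stellate cell markers 4 rose (mean level -1.17 to -0.86 on PBS and -0.84 to -0.28 on antibody arrays, Col1a1 by 1.57), and of 8 endothelial markers 3 rose (2.45 to 2.66 and 2.54 to 3.01). Of 9 tested Kupffer cell markers 2 rose (3.21 to 3.66 and 3.26 to 3.77), as did 2 of 4 red blood cell markers (2.23 to 2.35 and 2.28 to 2.59) and 1 of 6 lymphocyte markers (-0.97 to -0.80 and -0.86 to -0.70). Among 9 tested adipocyte markers 1 rose (Cidec, 2.21) and 1 fell (Lipe, -0.30), with mean levels of 2.53 to 2.83 and 2.74 to 3.29. These mean levels took in Pck1 (8.04 on average on the PBS arrays) and Car3 (6.22). Adipoq (group means of 0.30 on PBS and 0.09 on antibody arrays) and Plin1 (0.01 and 0.05) lay near the reference and did not pass. None of 5 tested skeletal muscle markers, 6 bile duct markers or 5 pancreatic markers passed (mean levels of -0.97 to -0.69 and -0.79 to -0.49, -1.99 to -1.76 and -1.93 to -1.59, and 1.16 to 1.28 and 1.23 to 1.37), and the muscle genes Ckm, Myh4 and Mylpf were not kept above background. The part of these markers in the differences of the glycogen genes was not tested.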

How the data were processed

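Liver RNA of 11 db/db samples was hybridised to two-colour Agilent arrays, with liver in Cy5 and a mouse reference pool in Cy3 and no dye swap, per the labels' protocols. Arrays were extracted with Agilent Feature Extraction (11 per the submitters' processing notes, 11.5.1.1 per the file headers). The deposited files hold median spot and background intensity values, uncorrected, plus processed intensities and their log10 ratio, per the file headers. The authors' deposited log2 table (processing not given in the sources used here) ran as Cy5 over Cy3 without centring of genes, with column medians of -0.0028 to 0.0081. It differed from the values used here by a median of 0.00329 over 39429 probes and by at most 0.037 on the 13 member probes, and gave the same 4 calls.

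Background was corrected with normexp (offset 50) and arrays were normalized by loess (limma 3.58.1, R 4.3.3), with control spots at weight 0 and uneven spots left out. Median signals were used because the files hold no mean spot signals. No gene spot was saturated, and no member spot was uneven. Probes were named through RefSeq accessions (table of GRCm38.p6, 26581 of 39429 probes matched). Kept probes had all their even spots well above background in Cy5, on 5 or more of 11 arrays, and the brightest kept probe stood for its gene. Median Cy5 signals were 85 to 110 per array against a background of 26 to 27, and 66.2% to 77.1% of spots were well above background. The number of arrays limits the precision.

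Groups came from the sample titles and were compared with lmFit and eBayes over all genes. Other probes of a member were tested over all 28565 kept probes. All 9 members were named. Of 38 further pathway genes those past the threshold were named, the one with the smallest p in each list without any, and G6pc and Gys1, with the 3 genes most like Gys2 and Pygl across arrays and the most changed stellate marker. Pygm, Pygb, Phkb, Phkg1, Phkg2, the named adipocyte markers and those named only for the fit without antibody replicate 5 fell outside that rule. They were chosen with their values in view. Some genes of these lists enter the counts but are not reported here by name. The fit was tested on simulated data. The members and lists were chosen with earlier results of these data known. Alternatives are in the closing section. Within-slide values, single-dye differences, second probes and the omission of population outlier spots were added after seeing the data.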

Additional observations from a re-analysis of the deposited data

Results flagged for a closer look

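In 3 of the 34 groups of values tested (17 named genes in each treatment), 1 array stood far from the rest of its group. Chance flags such an array in about 5% of groups. Gys2 on antibody replicate 5 was at 6.82, below the next antibody array at 7.26. Gbe1 on the same array was at 2.28, below the next at 3.21. Ppp1r3g on antibody replicate 1 was at 2.66, above the next at 1.004.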

How the results depend on the processing

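The counts of 4 member genes and 3 other glycogen genes called, and the sign of the Gys2 to Pygl difference, were the same with no background correction, the deposited log2 table, no filter on dim probes, a filter requiring all arrays, the mean of all kept probes and population outlier spots left out. PBS and antibody samples share the replicate numbers 1, 3, 4, 5 and 6. Same-numbered samples lay on the same slide. Over all genes they did not clearly deviate together (correlations of 0.13, 0.03, -0.01, -0.13 and 0.14). Such correlations cannot tell whether the samples were paired by design, and no label states it. With the replicate block (antibody replicate 2 left out) 1051 genes were called and 0 member genes, with limma adjusted p-values of 0.0555 for Gbe1, 0.0565 for Pygl, 0.0619 for Gys2 and 0.0665 for Gyg, and the Gys2 to Pygl difference was -0.19 (exact permutation p = 0.3125). With a normexp offset of 0 there were 3 member genes and 2 other glycogen genes called, and with median centring 2 and 2. Other glycogen genes called numbered 1 with the scanner software's ratio, 7 with the Cy5 dye alone and 8 with slide as a block. Between Gys2 and Pygl the shift differed by -0.38 for the scanner software's ratio and by 0.19 for the Cy5 dye alone. Single-gene signs turned for Ppp1r3b (-0.18 with the Cy5 dye alone), Gys1 (0.069 with the Cy5 dye alone, 0.0008 without PBS replicate 5, 0.0017 without PBS replicate 6 and 0.0045 without antibody replicate 3, range -0.040 to 0.0045 over all fits lacking 1 array) and Ppp1r3c (-0.014 with median centring, -0.16 with the scanner software's ratio, -0.060 with the Cy5 dye alone and -0.040 without antibody replicate 5, range -0.040 to 0.17). Leaving out 1 array gave 1240 to 3868 genes called (the highest without antibody replicate 5), 2 to 5 member genes (the lowest without PBS replicate 1, the highest without antibody replicate 5), 1 to 9 other glycogen genes and a Gys2 to Pygl difference of -0.22 to -0.11. The causes of these changes were not tested.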
